A study of Homo sapiens with 27 samples.

Results

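The 44 genes described here are targets of the hypoxia-inducible factors (HIFs) that act outside glycolysis. They were chosen by symbol as known HIF targets, with no measured value in the rule but with earlier results of these data known. All 44 were among the 20268 protein-coding genes counted. RNA had been sequenced from 3 human prostate cancer cell lines after depletion of CPSF1, a subunit of the complex that recognizes the poly(A) signal when a messenger RNA is cleaved and polyadenylated. The lines were LNCaP, which is hormone-sensitive, and LNCaP95 and 22Rv1, which are hormone-insensitive, with 3 replicates each of CTRL sh, CPSF1 sh1 and CPSF1 sh2 (27 libraries in 9 groups). CTRL sh is a non-targeting short hairpin RNA, and CPSF1 sh1 and CPSF1 sh2 are different hairpins against CPSF1. Every library, the controls included, came from cells infected with lentivirus and selected with puromycin as a stable pool, and was harvested 72 h after 500000 cells had been seeded in each well. LNCaP and 22Rv1 cells were kept in RPMI 1640 with fetal bovine serum, and LNCaP95 cells in the phenol-red-free form of that medium. For LNCaP95, line and medium therefore cannot be told apart. No group was labelled as grown in low oxygen.

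HIFs are transcription factors made of an oxygen-regulated alpha subunit, HIF-1 alpha (HIF1A) or HIF-2 alpha (EPAS1), and the constant partner ARNT. In oxygenated cells the prolyl hydroxylases of the EGLN family mark the alpha subunit, the VHL ubiquitin ligase binds it, and it is degraded. When oxygen is short the alpha subunit is stable, enters the nucleus and binds the hypoxia response element, a short motif with the core ACGTG or GCGTG near its target genes. The best known targets make the enzymes of glycolysis, but others recruit blood vessels, hold pyruvate out of the mitochondrion, remove mitochondria, modify collagen, store glycogen, export acid, demethylate histones or feed back on transcription. In prostate tumours, as in other solid tumours, this programme is known for vessel growth and for the shift away from oxidative metabolism.

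The core letters of the hypoxia response element occur in the promoters of many of these genes. A promoter from RefSeq (build GRCh38.p14, 250 bases before to 50 bases after the annotated start) was found for 35 of the 44 genes, and both strands were searched for ACGTG and GCGTG. The 9 without an entry were VEGFA, BNIP3L, NDRG1, ANKZF1, STC1, RAB20, ZNF395, HILPDA and SPAG4. ACGTG was present in 21 of the 35 (60.0%), against 21.4% of 35116 RefSeq promoters of that length. GCGTG was present in 18 (51.4%), against 36.5%, and 28 (80.0%) held at least 1 of the motifs, against 48.4%. Among the promoters of protein-coding genes alone the background was 23.0% for ACGTG, 43.0% for GCGTG and 54.7% for either. The 7 promoters without a match were those of PDK1, MXI1, P4HA2, C4orf3, TMEM45A, PGM1 and RORA. The windows below belong to the genes whose values are described most fully. Each is read 5′ to 3′ on the strand of its gene, and the position is that of the first base of the motif, with the annotated start as +1. Capitals mark the motif, and a motif on the opposite strand appears as its reverse complement. A palindromic site holds ACGTG on both strands, and these matches overlap.

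BNIP3 at -133 (chr10:131982042-131982066, minus strand): cacgcgccgcACGTGccacacgcac
PPFIA4 at -118 (chr1:203026363-203026387, plus strand): cgctctcgtcACGTGcccggacccg
PLOD2 at -146 (chr3:146161316-146161340, minus strand): aacagtccagACGTGgggcccagga
P4HA1 at -86 (chr10:73096938-73096962, minus strand): tgatcgagctCACGTagcgagggct
ANKRD37 at -161 (chr4:185396670-185396694, plus strand): gccgggctccACGTGccagtgtttg
BHLHE40 at -174 (chr3:4979253-4979277, plus strand): cagtggccagACGTGcctggagtca
LOX at -98 (chr5:122078343-122078367, minus strand): caatcgcattACGTGaacaaatagc
ERO1L at -114 (chr14:52695658-52695682, minus strand): ggcgccgcggCACGTccacaggctg
CA9 at -18 (chr9:35673900-35673924, plus strand): gtttccaatgCACGTacagcccgta
KDM3A at -26 (chr2:86441335-86441359, plus strand): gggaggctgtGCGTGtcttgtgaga
GYS1 at -85 (chr19:48993380-48993404, minus strand): ccgcccccggGCGTGggccaatggc
EFNA1 at -229 (chr1:155127637-155127661, plus strand): cacaaagctcCACGCagacccacaa

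The printed sites of BNIP3, PPFIA4 and ANKRD37 are palindromic, and BHLHE40 holds such a site further upstream, at -245. KDM3A, GYS1 and EFNA1 hold GCGTG without ACGTG in this window. A match in these letters is a description of the promoter, and neither HIF binding nor its effect was measured here.

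The libraries held 8515624 to 15904518 counts on genes (median 11058723), and all levels below are counts relative to library size (CPM), with library sizes scaled by the trimmed mean of M-values (TMM). CPSF1 itself was 151 ± 1.04 CPM (SD, n = 3) with CTRL sh and 96.2 ± 7.95 CPM (n = 6) with the CPSF1 hairpins in LNCaP. The same values were 114 ± 15.5 CPM and 61.4 ± 4.13 CPM for LNCaP95, and 184 ± 3.77 CPM and 130.4 ± 10.9 CPM for 22Rv1. The targeted gene was thus lowered but not lost in the 3 lines. Summed levels of 10 luminal prostate markers were 3005 to 6933 CPM in all 27 libraries, and lay lower with CPSF1 sh than with CTRL sh in LNCaP (4502 to 4804 against 5660 to 5754) and LNCaP95 (4822 to 5076 against 6740 to 6933), but not in 22Rv1 (3005 to 3309 against 3159 to 3188). The 4 basal markers were low but lay higher with CPSF1 sh than with CTRL sh in LNCaP (4.23 to 6.55 CPM against 1.59 to 2.19) and 22Rv1 (7.28 to 24.7 against 1.10 to 2.54), while in LNCaP95 the ranges overlapped (2.87 to 8.09 against 3.14 to 3.69). These sums came mostly from KRT14 in LNCaP and KRT15 in 22Rv1, and the defining marker TP63 was at 0 in all LNCaP libraries and at most 0.288 ± 0.0971 CPM in a group mean. The 8 measured markers of stromal, endothelial and blood cells summed to 40.3 to 51.0 CPM with CPSF1 sh against 55.1 to 63.9 with CTRL sh in LNCaP, 78.3 to 88.0 against 65.5 to 85.7 in LNCaP95, and 14.4 to 24.4 against 12.8 to 17.1 in 22Rv1. Of 4 of them tested in LNCaP, 2 fell, the furthest by -1.23, and 1 rose (31.0% and 31.1% of all tested genes did). Of 2 tested in LNCaP95, 1 fell (-0.40) and 1 rose (33.7% and 33.2%). The rise was that of CD68 in both LNCaP (2.09, standard error 0.21, adjusted p = 6.98e-07) and LNCaP95 (1.64, standard error 0.26, adjusted p = 1.22e-04). In 22Rv1 CD68 did not pass the filter, at 1.26 ± 0.353 CPM with CTRL sh and 4.58 ± 2.34 CPM with CPSF1 sh. COL1A2 was at 0 in all libraries of LNCaP. The part of these markers in the results below was not tested. With bulk RNA, fewer cells that express a gene and less of its RNA per cell cannot be told apart.

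Depletion of CPSF1 lowered most of these genes in LNCaP and LNCaP95 cells and fewer of them in 22Rv1 cells. For each line the 3 CTRL sh libraries were compared with the 6 CPSF1 sh libraries by edgeR's quasi-likelihood F-test over every gene above 2 CPM in all 9 libraries, with Benjamini-Hochberg adjustment over all tested genes, and rose or fell means an adjusted p below 0.05. The expression filter was passed by 35 of the 44 genes in LNCaP, 40 in LNCaP95 and 36 in 22Rv1. In LNCaP 32 of the 35 fell, where 31.0% of all 11096 tested genes fell, and 2 rose (GYS1 and KDM4B), where 31.1% of all genes rose. In LNCaP95 37 of the 40 fell (33.7% of all 11143 genes) and 1 rose, BHLHE41 (33.2%). In 22Rv1 22 of the 36 fell (14.3% of all 11728 genes) and 1 rose, EFNA1 (12.7%). The members' median log2 fold change stood at -0.75 in LNCaP, fell to -1.06 in LNCaP95 and was nearer to 0 in 22Rv1 (-0.29), while that of all tested genes lay within 0.01 of 0.

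A fall in every line was seen for 19 of the 33 genes tested in all 3 (57.6%, against 4.90% of 10317 genes tested in all 3): VEGFA, BNIP3, BNIP3L, PDK1, AK4, P4HA1, P4HA2, PLOD2, KDM3A, KDM4C, MXI1, ERO1L, NDRG1, EFNA3, TMEM45A, FUT11, C4orf3, PPFIA4 and RIMKLA. None rose in every line, where 3.85% of all genes did. In 22Rv1 the falls of NDRG1, EFNA3, FUT11 and C4orf3 were called with CPSF1 sh2 but not with CPSF1 sh1 when the hairpins were fitted apart. For 6 of these 19 a call was lost when 1 library was left out. In 22Rv1 cells adjusted p was 0.112 for KDM3A, 0.101 for NDRG1 and 0.218 for FUT11 without CTRL sh replicate 1, and 0.0757 for EFNA3, 0.122 for C4orf3 and 0.104 for NDRG1 without CTRL sh replicate 2. C4orf3 was at 0.081 without CTRL sh replicate 3, and FUT11 also lost its call without CTRL sh replicate 2 or 3, CPSF1 sh1 replicate 2, or CPSF1 sh2 replicate 1 or 2 (0.0505 to 0.0843). With all libraries, that 22Rv1 call of FUT11 was lost with DESeq2 (adjusted p = 0.0568) and with scaling by library size alone (0.0514). In LNCaP95 cells that of TMEM45A was 0.0654 without CTRL sh replicate 1 and 0.054 without replicate 2. Of the promoters read, 9 of 16 held ACGTG among the genes that fell in every line and 12 of 19 among the others. The others include genes not tested in every line. Among these, ANKRD37, BHLHE40 and LOX fell in each line where they were tested. The counts therefore do not set genes that fell against genes that did not.

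The size of the fall differed between lines as well as its frequency. More than 2-fold lower were 9 genes in LNCaP (2.06% of all tested genes), 23 in LNCaP95 (2.39%) and none in 22Rv1 (0.273%, and 22 members at any size). No member rose by that much, where 1.55%, 2.99% and 0.520% of all genes did in the 3 lines in the same order. All 6 CPSF1 sh libraries lay below all 3 CTRL sh libraries for 32 of 35 genes in LNCaP (27.7% of all tested genes), 37 of 40 in LNCaP95 (30.3%) and 22 of 36 in 22Rv1 (15.2%). All 6 lay above the controls for GYS1 in LNCaP, BHLHE41 in LNCaP95 and EFNA1 in 22Rv1, 1 member in each line, where 27.9%, 29.8% and 13.0% of all genes did so. For the falls, in LNCaP and LNCaP95 these were the genes called lower, while in 22Rv1 cells NDRG1 was called with overlapping groups and WSB1 had separate groups without a call (-0.14, standard error 0.051, adjusted p = 0.0611, and 0.0344 without CPSF1 sh1 replicate 3, 0.0397 with averaged hairpins and 0.0489 with the looser filter filterByExpr). Scaling LNCaP95 libraries by their size alone moved all genes to 2850 lower and 4685 higher, from 3756 and 3694, yet the members stayed at 37 lower and 1 higher.

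**Figure D1:**
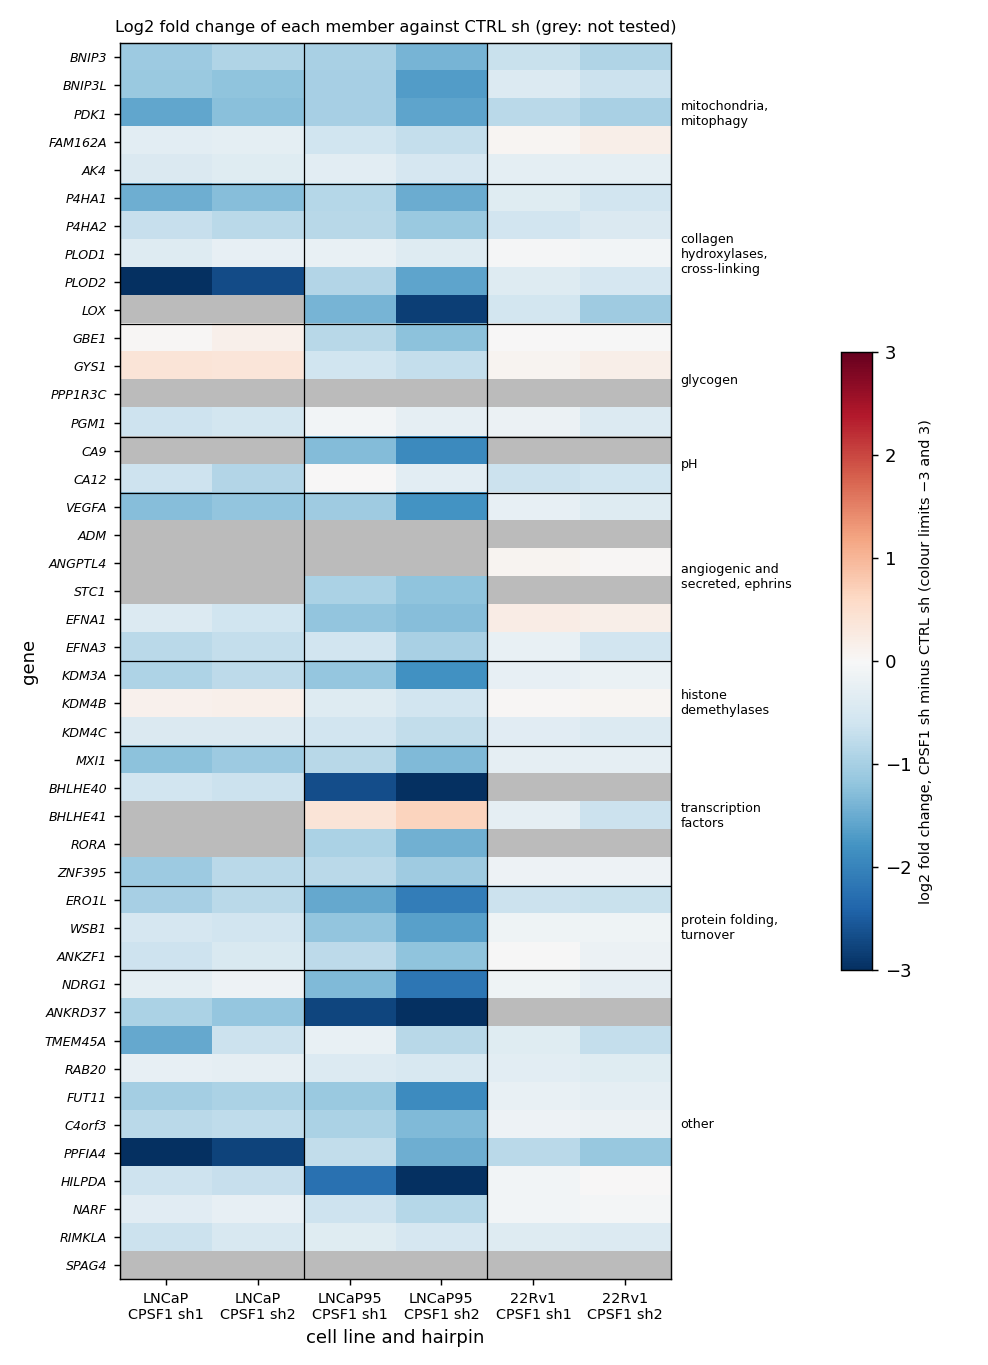
Log2 fold change against CTRL sh of each of the 44 genes in rows, grouped by role, with 1 column for each hairpin in each cell line. Blue is lower, red is higher, grey was not tested, and colours are limited at -3 and 3. Both hairpins give the deepest blue in LNCaP95 for ANKRD37 (-2.76 and -4.26) and BHLHE40 (-2.67 and -3.21) and in LNCaP for PPFIA4 and PLOD2, while 22Rv1 stays between -1.14 and 0.21.

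Before knockdown the lines already held these transcripts at different levels. With CTRL sh, when the 27 libraries were scaled together, all 3 LNCaP95 libraries lay above all LNCaP and 22Rv1 libraries for 30 of the 33 genes tested in every line (90.9%), against 26.5% of 10317 genes. All 3 22Rv1 libraries lay below the other 6 for 24 of the 33 (72.7%), against 29.7%. The median log2 ratio of LNCaP95 to LNCaP was 0.87 over the members and 0.02 over all genes, and that of 22Rv1 to LNCaP was -0.69 and -0.0033. The 3 exceptions were CA12, highest in 22Rv1 (79.8 CPM, against 60.5 in LNCaP and 57.5 in LNCaP95), PGM1, highest in LNCaP (93.5 CPM, against 82.3 in LNCaP95 and 37.5 in 22Rv1), and KDM4C, whose libraries overlapped (52.4, 58.7 and 48.0 CPM in LNCaP, LNCaP95 and 22Rv1). On this scale VEGFA averaged 1304 CPM in LNCaP95, against 304 in LNCaP and 104 in 22Rv1. NDRG1 averaged 1562 CPM in LNCaP95, against 425 and 117, and BNIP3 606 CPM, against 379 and 94.0. These levels are a description of 3 libraries per line. Line and culture history cannot be told apart, nor can line and medium where LNCaP95 is compared.

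Genes that act on mitochondria fell in all the tests but 1. The group holds BNIP3 and BNIP3L, receptors that mark mitochondria for autophagy, PDK1, the kinase that shuts off pyruvate dehydrogenase, AK4, an adenylate kinase of the matrix, and FAM162A, a small mitochondrial protein linked to hypoxic cell death. All 5 fell in LNCaP and in LNCaP95, and 4 of 5 in 22Rv1 cells, where FAM162A did not pass the test (0.11, standard error 0.056, adjusted p = 0.146). BNIP3 and AK4 have processed pseudogenes, and reads shared with those could not be told apart in gene counts.

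BNIP3 (chromosome 10, 133781578 to 133795435 in GRCh37) was 383, 382 and 343 CPM in the CTRL sh libraries, 169, 186 and 166 CPM in the CPSF1 sh1 libraries, and 179, 202 and 210.0 CPM in the CPSF1 sh2 libraries in LNCaP cells. Its log2 fold change was -0.99 (standard error 0.064, adjusted p = 9.65e-09), and no CPSF1 sh library reached the lowest control. In LNCaP95 cells BNIP3 was 616, 616 and 567 CPM in the CTRL sh libraries, 297, 306 and 315 CPM in the CPSF1 sh1 libraries, and 227, 234 and 222 CPM in the CPSF1 sh2 libraries. The change there was -1.17 (standard error 0.11, adjusted p = 1.76e-06), with each CPSF1 sh2 library below each CPSF1 sh1 library. For 22Rv1 the values were 84.9, 97.9 and 92.1 CPM in the CTRL sh libraries, 53.8, 54.5 and 64.1 CPM in the CPSF1 sh1 libraries, and 44.5, 51.2 and 50.8 CPM in the CPSF1 sh2 libraries. From this lower start BNIP3 changed by -0.79 (standard error 0.084, adjusted p = 3.07e-05), again without overlap.

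BNIP3L, its close relative, stood at 343, 341 and 303 CPM in the CTRL sh libraries, 141, 161 and 156 CPM in the CPSF1 sh1 libraries, and 133, 151 and 141 CPM in the CPSF1 sh2 libraries in LNCaP. The change was -1.16 (standard error 0.055, adjusted p = 5.30e-10). LNCaP95 gave 533, 543 and 509 CPM in the CTRL sh libraries, 255, 279 and 263 CPM in the CPSF1 sh1 libraries, and 163, 179 and 156 CPM in the CPSF1 sh2 libraries. This was a change of -1.29 (standard error 0.16, adjusted p = 2.07e-05), larger with the second hairpin. In 22Rv1 BNIP3L was 135, 145 and 135 CPM in the CTRL sh libraries, 105, 98.8 and 106 CPM in the CPSF1 sh1 libraries, and 86.3, 90.5 and 86.9 CPM in the CPSF1 sh2 libraries, for a change of -0.53 (standard error 0.068, adjusted p = 1.14e-04). In none of the lines did the control and CPSF1 sh libraries overlap.

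PDK1 (chromosome 2, 173420101 to 173489823) had 154, 159 and 131 CPM in the CTRL sh libraries, 47.6, 53.4 and 50.1 CPM in the CPSF1 sh1 libraries, and 56.4, 65.5 and 64.7 CPM in the CPSF1 sh2 libraries in LNCaP. It changed by -1.39 (standard error 0.086, adjusted p = 6.27e-09), the largest fall of the mitochondrial genes in that line. In LNCaP95 it was 265, 284 and 238 CPM in the CTRL sh libraries, 128, 130.1 and 137 CPM in the CPSF1 sh1 libraries, and 91.9, 87.7 and 82.5 CPM in the CPSF1 sh2 libraries, a change of -1.26 (standard error 0.15, adjusted p = 1.01e-05). For 22Rv1 the libraries gave 27.1, 28.5 and 25.8 CPM in the CTRL sh libraries, 13.6, 14.4 and 18.4 CPM in the CPSF1 sh1 libraries, and 12.9, 14.3 and 14.6 CPM in the CPSF1 sh2 libraries. PDK1 changed there by -0.88 (standard error 0.096, adjusted p = 3.19e-05), one of the 5 largest falls among the members in that line. AK4 changed less, by -0.39, -0.40 and -0.29 in LNCaP, LNCaP95 and 22Rv1, and FAM162A by -0.31 and -0.65 in LNCaP and LNCaP95.

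**Figure D2:**
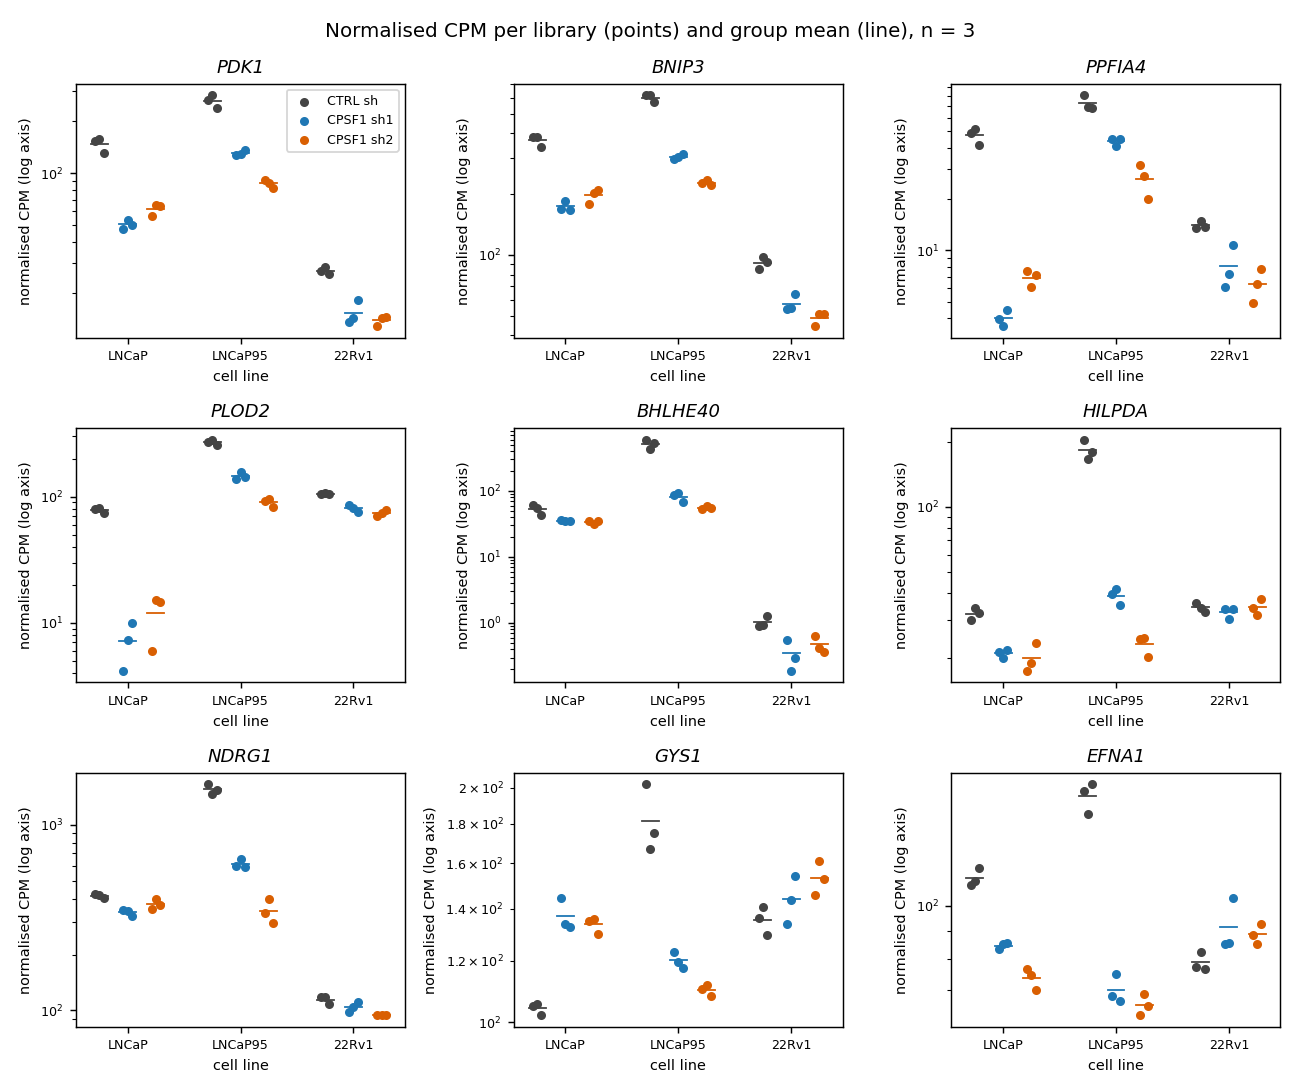
Normalized CPM (log axis) of 9 of the genes in each of the 27 libraries, with points for the 3 replicates of CTRL sh, CPSF1 sh1 and CPSF1 sh2 in each cell line and a bar at each group mean. PDK1 and BNIP3 sit lower with both hairpins in every line, HILPDA and BHLHE40 drop most in LNCaP95, PPFIA4 and PLOD2 most in LNCaP, and GYS1 and EFNA1 go up in LNCaP and 22Rv1 respectively.

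Collagen-modifying enzymes fell together in LNCaP and LNCaP95. P4HA1 and P4HA2 are the catalytic subunits of prolyl 4-hydroxylase, PLOD1 and PLOD2 hydroxylate collagen lysines, and LOX cross-links collagen and elastin outside the cell. All 4 tested genes fell in LNCaP, all 5 in LNCaP95, and 4 of 5 in 22Rv1, where PLOD1 did not (-0.062, standard error 0.052, adjusted p = 0.407).

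PLOD2 (chromosome 3, 145787227 to 145881440) dropped furthest in LNCaP, with 79.4, 81.5 and 73.8 CPM in the CTRL sh libraries, 4.19, 7.38 and 10.0 CPM in the CPSF1 sh1 libraries, and 6.02, 15.3 and 14.7 CPM in the CPSF1 sh2 libraries. Its log2 fold change was -2.97 (standard error 0.21, adjusted p = 1.94e-08), while PLOD1 in those cells changed by -0.32 (standard error 0.049, adjusted p = 5.21e-05). In LNCaP95 PLOD2 changed by -1.18 (standard error 0.17, adjusted p = 4.83e-05), from 269.6 ± 13.0 CPM (SD, n = 3) to 146 ± 9.32 CPM and 90.6 ± 7.03 CPM with the hairpins, and in 22Rv1 by -0.44 (standard error 0.059, adjusted p = 1.46e-04), from 105 ± 0.856 CPM to 81.0 ± 5.45 CPM and 74.1 ± 4.06 CPM.

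P4HA1 was 221, 216 and 196 CPM in the CTRL sh libraries, 76.7, 79.8 and 73.5 CPM in the CPSF1 sh1 libraries, and 84.1, 91.1 and 87.3 CPM in the CPSF1 sh2 libraries in LNCaP, a change of -1.36 (standard error 0.059, adjusted p = 2.19e-10). It was 584, 579.5 and 583 CPM in the CTRL sh libraries, 314, 351 and 301 CPM in the CPSF1 sh1 libraries, and 213, 220.1 and 192 CPM in the CPSF1 sh2 libraries in LNCaP95, a change of -1.13 (standard error 0.15, adjusted p = 3.69e-05). In 22Rv1 it was 94.99, 101 and 88.0 CPM in the CTRL sh libraries, 73.3, 70.9 and 78.6 CPM in the CPSF1 sh1 libraries, and 62.0, 64.1 and 65.4 CPM in the CPSF1 sh2 libraries, which amounts to -0.46 (standard error 0.072, adjusted p = 4.56e-04). The control and CPSF1 sh libraries were separate in all 3 lines. P4HA2 changed by -0.75, -0.96 and -0.50 in LNCaP, LNCaP95 and 22Rv1.

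LOX was low in LNCaP controls (1.89 ± 0.315 CPM) and passed the filter in the other lines only. LNCaP95 held 333, 307 and 309 CPM in the CTRL sh libraries, 117, 129.6 and 114 CPM in the CPSF1 sh1 libraries, and 43.96, 49.98 and 40.5 CPM in the CPSF1 sh2 libraries. The change was -1.92 (standard error 0.31, adjusted p = 1.51e-04), and the CPSF1 sh2 libraries lay far below those of CPSF1 sh1. In 22Rv1 LOX was 8.16, 7.52 and 6.67 CPM in the CTRL sh libraries, 5.90, 5.23 and 4.09 CPM in the CPSF1 sh1 libraries, and 4.25, 2.82 and 3.61 CPM in the CPSF1 sh2 libraries, with a change of -0.79 (standard error 0.17, adjusted p = 0.00441).

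The glycogen genes did not move as a group. GYS1 is muscle-type glycogen synthase, GBE1 the branching enzyme, PGM1 the phosphoglucomutase that links glucose 1-phosphate and glucose 6-phosphate, and PPP1R3C a subunit that targets phosphatase to glycogen. In LNCaP 1 of 3 tested genes fell (PGM1), 1 rose (GYS1) and 1 was not called (GBE1). These counts lie near the shares of all tested genes in that line (31.0% lower and 31.1% higher). In LNCaP95 2 fell (GYS1 and GBE1) and PGM1 was not called, and in 22Rv1 PGM1 fell with the others not called. PPP1R3C was under 0.5 CPM on average in every group and was tested nowhere.

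GYS1 in LNCaP cells was 105, 106 and 102 CPM in the CTRL sh libraries, 145, 134 and 133 CPM in the CPSF1 sh1 libraries, and 135, 136 and 129.9 CPM in the CPSF1 sh2 libraries. It rose by 0.37 (standard error 0.04, adjusted p = 1.47e-06), with all 6 CPSF1 sh libraries above the controls. In LNCaP95 it fell, from 181 ± 18.5 CPM to 120.1 ± 2.96 CPM and 110.1 ± 1.80 CPM, a change of -0.66 (standard error 0.062, adjusted p = 2.16e-06). The 22Rv1 value was 0.13 (standard error 0.056, adjusted p = 0.0967), and without CPSF1 sh1 replicate 1 its adjusted p was 0.0298. GBE1 changed by -1.02 (standard error 0.10, adjusted p = 3.26e-06) in LNCaP95, with 0.0036 (standard error 0.051, adjusted p = 0.967) in 22Rv1 and 0.094 (standard error 0.048, adjusted p = 0.104) in LNCaP, and in LNCaP its adjusted p was 0.0437 without CPSF1 sh1 replicate 1. PGM1 changed in LNCaP by -0.57 (standard error 0.045, adjusted p = 6.66e-08) and in 22Rv1 by -0.29 (standard error 0.085, adjusted p = 0.0222), where leaving out any 1 control raised its adjusted p to between 0.0684 and 0.0917. Its LNCaP95 value was -0.17 (standard error 0.074, adjusted p = 0.0617), with 0.0323 without CPSF1 sh1 replicate 2 and 0.0361 without replicate 3. PGM1 was called lower in LNCaP95 under 4 other settings too, with adjusted p at 0.00524 when the hairpins were fitted apart and averaged, 0.0258 with filterByExpr, 0.0472 with a filter of 1 CPM and 0.0242 without a filter beyond 1 count.

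The carbonic anhydrases CA9 and CA12 sit at the cell surface and help to export acid. CA9 passed the filter in LNCaP95 alone, where the controls averaged 54.1 ± 4.14 CPM (SD, n = 3) and the hairpin groups 22.1 ± 1.54 CPM (CPSF1 sh1) and 14.4 ± 3.28 CPM (CPSF1 sh2). This was a change of -1.55 (standard error 0.16, adjusted p = 5.25e-06). In LNCaP it was 0.99 ± 0.25 CPM with CTRL sh and at most 0.0734 ± 0.127 CPM on average with a CPSF1 hairpin, and in 22Rv1 it stayed under 0.5 CPM in each group mean. CA12 fell where CA9 was not tested, with changes of -0.75 (standard error 0.08, adjusted p = 1.52e-06) for LNCaP and -0.62 (standard error 0.048, adjusted p = 4.08e-06) for 22Rv1, and its value in LNCaP95 was -0.13 (standard error 0.11, adjusted p = 0.292), or an adjusted p of 0.0414 with averaged hairpins.

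Among secreted factors and ephrins, the 3 tested in LNCaP (VEGFA, EFNA1 and EFNA3) and the 4 tested in LNCaP95 (with STC1) all fell. Of the 4 tested in 22Rv1, VEGFA and EFNA3 fell, EFNA1 rose and ANGPTL4 was not called. VEGFA is the main growth factor for blood vessels, ADM (adrenomedullin) a vasodilator peptide, ANGPTL4 an inhibitor of lipoprotein lipase, STC1 a secreted glycoprotein hormone, and EFNA1 and EFNA3 membrane-anchored ligands of Eph receptors.

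VEGFA in LNCaP was 291, 299 and 298 CPM in the CTRL sh libraries, 121, 118 and 125 CPM in the CPSF1 sh1 libraries, and 131, 133 and 124 CPM in the CPSF1 sh2 libraries, a change of -1.24 (standard error 0.039, adjusted p = 1.24e-11). In LNCaP95 it was 1338, 1225 and 1308 CPM in the CTRL sh libraries, 629, 654 and 563 CPM in the CPSF1 sh1 libraries, and 393, 395 and 326 CPM in the CPSF1 sh2 libraries, a change of -1.39 (standard error 0.18, adjusted p = 2.55e-05). The 22Rv1 libraries held 108, 101 and 95.5 CPM in the CTRL sh libraries, 80.6, 87.6 and 90.4 CPM in the CPSF1 sh1 libraries, and 78.6, 76.6 and 77.04 CPM in the CPSF1 sh2 libraries, for -0.31 (standard error 0.062, adjusted p = 0.00234). Its groups did not overlap in any line, but the 22Rv1 fall was small beside the others.

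EFNA1 in 22Rv1 was 77.2, 82.4 and 76.6 CPM in the CTRL sh libraries, 85.1, 85.4 and 103 CPM in the CPSF1 sh1 libraries, and 88.5, 85.1 and 92.6 CPM in the CPSF1 sh2 libraries. It rose there by 0.19 (standard error 0.065, adjusted p = 0.0395), with every CPSF1 sh library above the controls by a narrow margin. This call did not hold without single libraries: adjusted p was 0.144, 0.0596 and 0.143 without CTRL sh replicates 1, 2 and 3, and 0.0537 and 0.0691 without CPSF1 sh2 replicates 1 and 3. In LNCaP cells EFNA1 changed by -0.51 (standard error 0.058, adjusted p = 3.11e-06), and in LNCaP95 by -1.22 (standard error 0.057, adjusted p = 1.23e-08). EFNA3 changed by -0.76, -0.76 and -0.39 in LNCaP, LNCaP95 and 22Rv1. STC1 fell in LNCaP95 from 119 ± 11.8 CPM to 61.9 ± 2.18 CPM and 51.4 ± 1.42 CPM (-1.07, standard error 0.084, adjusted p = 5.20e-07). ANGPTL4 was 45.7 ± 2.16 CPM with CTRL sh in 22Rv1 and its value there was 0.067 (standard error 0.071, adjusted p = 0.515), while in LNCaP and LNCaP95 each of its controls averaged under 0.5 CPM.

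The histone demethylases are enzymes that need oxygen themselves. KDM3A removes methyl groups from histone H3 lysine 9, and KDM4B and KDM4C from the trimethylated form of that residue. KDM3A and KDM4C fell in all 3 lines, while KDM4B rose in LNCaP, fell in LNCaP95 and was not called in 22Rv1 (0.049, standard error 0.052, adjusted p = 0.516).

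KDM3A was 107, 102 and 84.9 CPM in the CTRL sh libraries, 53.4, 50.01 and 50.9 CPM in the CPSF1 sh1 libraries, and 55.8, 57.3 and 57.7 CPM in the CPSF1 sh2 libraries in LNCaP, a change of -0.85 (standard error 0.068, adjusted p = 8.23e-08). LNCaP95 cells had 238, 225 and 216 CPM in the CTRL sh libraries, 104, 109 and 90.0 CPM in the CPSF1 sh1 libraries, and 66.1, 68.7 and 56.4 CPM in the CPSF1 sh2 libraries, a change of -1.45 (standard error 0.16, adjusted p = 7.89e-06). 22Rv1 cells had 70.2, 64.6 and 62.0 CPM in the CTRL sh libraries, 58.1, 57.0 and 51.1 CPM in the CPSF1 sh1 libraries, and 58.1, 55.4 and 59.0 CPM in the CPSF1 sh2 libraries, and the change was only -0.22 (standard error 0.059, adjusted p = 0.0139). That fall lost its call without CTRL sh replicate 1 (adjusted p = 0.112). KDM4C changed by -0.44, -0.65 and -0.38 in LNCaP, LNCaP95 and 22Rv1.

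KDM4B in LNCaP was 151, 164 and 137 CPM in the CTRL sh libraries, 172, 168 and 155 CPM in the CPSF1 sh1 libraries, and 167, 170.3 and 162 CPM in the CPSF1 sh2 libraries. The rise was 0.14 (standard error 0.051, adjusted p = 0.0279), the groups overlapped, and the call was lost without CTRL sh replicate 1 (adjusted p = 0.0664), CTRL sh replicate 3 (0.227), CPSF1 sh1 replicate 2 (0.0562) or CPSF1 sh2 replicate 2 (0.0648), and with all libraries but no filter beyond 1 count (0.0822). In LNCaP95 it changed by -0.48 (standard error 0.078, adjusted p = 1.50e-04), from 178 ± 17.1 CPM to 136 ± 7.07 CPM and 119 ± 8.34 CPM.

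Transcription factors among the members were MXI1, which antagonizes MYC, the circadian repressors BHLHE40 and BHLHE41, the nuclear receptor RORA, and ZNF395, a zinc finger protein. All 3 tested in LNCaP fell (MXI1, BHLHE40 and ZNF395). In LNCaP95 4 of 5 fell and BHLHE41 rose. In 22Rv1 MXI1 fell, and BHLHE41 and ZNF395 were not called.

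BHLHE40 (chromosome 3, 5020801 to 5027008) was 597, 429.7 and 532 CPM in the CTRL sh libraries, 85.3, 91.8 and 67.4 CPM in the CPSF1 sh1 libraries, and 54.2, 58.7 and 55.4 CPM in the CPSF1 sh2 libraries in LNCaP95. It changed by -2.91 (standard error 0.15, adjusted p = 2.76e-08), the second largest fall of the members in that line. In LNCaP it changed by -0.62 (standard error 0.087, adjusted p = 2.43e-05), and in 22Rv1 it was 1.03 ± 0.207 CPM with CTRL sh and was not tested. BHLHE41, its paralog, was 17.5, 14.0 and 16.1 CPM in the CTRL sh libraries, 21.8, 20.8 and 19.99 CPM in the CPSF1 sh1 libraries, and 25.3, 25.3 and 25.4 CPM in the CPSF1 sh2 libraries in LNCaP95. Here the direction was opposite, at 0.53 (standard error 0.11, adjusted p = 7.31e-04), with every CPSF1 sh library above the controls. The 22Rv1 value of BHLHE41 was -0.45 (standard error 0.16, adjusted p = 0.0515), with 0.0131 without CPSF1 sh1 replicate 3, 0.0156 with averaged hairpins and 0.0499 with the edgeR 4 form of the test. MXI1 changed by -1.15, -1.05 and -0.27 in LNCaP, LNCaP95 and 22Rv1, ZNF395 by -0.94 and -0.93 in LNCaP and LNCaP95, and RORA by -1.16 in LNCaP95. ZNF395 in 22Rv1 was at -0.15 (standard error 0.059, adjusted p = 0.0737), and at 0.0362 without CPSF1 sh1 replicate 2.

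In protein folding and turnover, ERO1L is the oxidase that drives disulfide formation in the endoplasmic reticulum, WSB1 a substrate receptor of a ubiquitin ligase, and ANKZF1 a factor of ribosome quality control. All 3 fell in LNCaP and LNCaP95, and only ERO1L passed the test in 22Rv1. ERO1L was 388, 402 and 375 CPM in the CTRL sh libraries, 125, 147 and 131 CPM in the CPSF1 sh1 libraries, and 92.7, 94.4 and 88.3 CPM in the CPSF1 sh2 libraries in LNCaP95, a change of -1.78 (standard error 0.13, adjusted p = 3.83e-07). In 22Rv1 it was 64.9, 63.6 and 63.9 CPM in the CTRL sh libraries, 42.3, 44.2 and 36.6 CPM in the CPSF1 sh1 libraries, and 41.7, 40.0 and 39.8 CPM in the CPSF1 sh2 libraries, a change of -0.65 (standard error 0.058, adjusted p = 9.98e-06). Its LNCaP change was -0.89, and its groups were separate in the 3 lines. WSB1 changed by -0.54 in LNCaP and -1.38 in LNCaP95, and ANKZF1 by -0.54 and -0.98. The 22Rv1 value of ANKZF1 was -0.09 (standard error 0.067, adjusted p = 0.341).

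Of the remaining 11 genes, all 10 tested fell in LNCaP, all 10 tested in LNCaP95, and 6 of 9 in 22Rv1 cells. The largest fall of any member in LNCaP was that of PPFIA4 (liprin alpha 4, a scaffold protein, chromosome 1, 202995626 to 203047868), with 48.4, 51.4 and 41.5 CPM in the CTRL sh libraries, 3.95, 3.60 and 4.48 CPM in the CPSF1 sh1 libraries, and 7.53, 6.09 and 7.14 CPM in the CPSF1 sh2 libraries. Its log2 fold change was -3.08 (standard error 0.15, adjusted p = 5.54e-10), and it was lower with CPSF1 sh1 than with CPSF1 sh2. In 22Rv1 PPFIA4 was 13.4, 14.9 and 13.6 CPM in the CTRL sh libraries, 6.08, 7.22 and 10.8 CPM in the CPSF1 sh1 libraries, and 4.88, 6.38 and 7.77 CPM in the CPSF1 sh2 libraries. That was -0.96 (standard error 0.17, adjusted p = 9.98e-04), the largest fall of the members in 22Rv1 too, and in LNCaP95 the change was -1.05 (standard error 0.19, adjusted p = 3.64e-04).

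ANKRD37 (chromosome 4, 186317175 to 186321395), an ankyrin repeat protein, fell furthest in LNCaP95, with 163, 126 and 137 CPM in the CTRL sh libraries, 20.5, 24.8 and 17.4 CPM in the CPSF1 sh1 libraries, and 8.37, 7.99 and 5.91 CPM in the CPSF1 sh2 libraries. Its change was -3.28 (standard error 0.29, adjusted p = 1.22e-06), against -1.06 (standard error 0.11, adjusted p = 1.79e-06) in LNCaP. HILPDA (chromosome 7, 128095903 to 128098472), a lipid droplet protein that inhibits triglyceride breakdown, was 204, 166 and 178 CPM in the CTRL sh libraries, 39.4, 41.4 and 35.0 CPM in the CPSF1 sh1 libraries, and 24.5, 24.6 and 20.2 CPM in the CPSF1 sh2 libraries in LNCaP95. The change was -2.55 (standard error 0.17, adjusted p = 1.54e-07), against -0.036 (standard error 0.07, adjusted p = 0.741) in 22Rv1 cells and -0.65 (standard error 0.084, adjusted p = 1.03e-05) in LNCaP cells. For both genes the CPSF1 sh2 libraries of LNCaP95 were lower than those of CPSF1 sh1.

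NDRG1, a stress-responsive protein also induced by androgen, was 422, 417 and 404 CPM in the CTRL sh libraries, 349, 344 and 324 CPM in the CPSF1 sh1 libraries, and 353, 398 and 368 CPM in the CPSF1 sh2 libraries in LNCaP. Its change was small, at -0.22 (standard error 0.051, adjusted p = 0.00164). In LNCaP95 it was 1648, 1453 and 1535 CPM in the CTRL sh libraries, 602, 653 and 592 CPM in the CPSF1 sh1 libraries, and 334, 397 and 297 CPM in the CPSF1 sh2 libraries, a change of -1.69 (standard error 0.21, adjusted p = 1.66e-05). In 22Rv1 NDRG1 was 118, 117 and 108 CPM in the CTRL sh libraries, 98.3, 104 and 111 CPM in the CPSF1 sh1 libraries, and 94.5, 94.7 and 95.1 CPM in the CPSF1 sh2 libraries, at -0.20 (standard error 0.058, adjusted p = 0.0199) with overlapping groups, and the call was lost without CTRL sh replicate 1 (0.101) or replicate 2 (0.104).

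Of the other members of this group, FUT11, a fucosyltransferase, changed by -0.97, -1.43 and -0.24 in LNCaP, LNCaP95 and 22Rv1. C4orf3, a micropeptide that regulates calcium pumps, changed by -0.78, -1.12 and -0.16. TMEM45A, a transmembrane protein, changed by -1.002, -0.48 and -0.52, and RIMKLA, an N-acetylaspartylglutamate synthase, by -0.56, -0.44 and -0.40. NARF, a prelamin A binding protein, fell by 0.29 and 0.74 in LNCaP and LNCaP95 on the log2 scale, and its 22Rv1 value was -0.071 (standard error 0.062, adjusted p = 0.422). RAB20, a small GTPase of endosomes, changed by -0.27 and -0.43 in those lines, with -0.34 (standard error 0.14, adjusted p = 0.0806) in 22Rv1.

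The 3 genes tested in no line were PPP1R3C, ADM and SPAG4, a nuclear envelope protein. SPAG4 was 6.55 ± 0.748 CPM with CTRL sh and 2.28 ± 0.842 CPM (SD, n = 6) with CPSF1 sh in LNCaP95, and ADM 2.28 ± 0.852 CPM and 0.763 ± 0.280 CPM. Under edgeR's filterByExpr, a looser filter, SPAG4 changed by -1.19 (adjusted p = 2.01e-04) in LNCaP and -1.52 (adjusted p = 1.19e-04) in LNCaP95, and ADM by -1.61 (adjusted p = 6.26e-04) in LNCaP95. That filter also admitted STC1 in LNCaP, which went from 23.2 ± 2.46 CPM to 2.53 ± 0.731 CPM and 3.31 ± 1.72 CPM (-2.97, adjusted p = 2.70e-08), LOX in LNCaP (-1.65, adjusted p = 8.39e-05), RORA in LNCaP (-1.13, adjusted p = 1.13e-04) and 22Rv1 (-1.32, adjusted p = 0.00899), and BHLHE41 in LNCaP (0.97, adjusted p = 0.0361). Except for BHLHE41, each of these low genes was lower with CPSF1 sh.

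The hairpins can be set against each other because each has 3 libraries in each line. Called lower with both were 17 of 36 genes in 22Rv1, 32 of 35 in LNCaP and 37 of 40 in LNCaP95, and no gene was called in opposite directions by the hairpins. The shares of all tested genes called with both hairpins, or in opposite directions, were not counted. Whether this agreement is particular to the members was therefore not tested. Genes called lower numbered 32 with CPSF1 sh1 (31.3% of all tested genes) and 32 with CPSF1 sh2 (32.5%) in LNCaP. For LNCaP95 the counts were 37 (33.3%) and 39 (36.9%), and for 22Rv1 17 (11.1%) and 24 (20.9%). Called higher were 2 with CPSF1 sh1 (KDM4B and GYS1, 31.2% of all tested genes) and 3 with CPSF1 sh2 (these and GBE1, 32.1%) in LNCaP, BHLHE41 with each hairpin in LNCaP95 (33.1% and 36.5%), and 1 (8.79%) and 2 (19.1%) in 22Rv1. In 22Rv1 7 genes were called lower with CPSF1 sh2 alone (NDRG1, BHLHE41, ANKZF1, PGM1, EFNA3, FUT11 and C4orf3), GYS1 and FAM162A were called higher with CPSF1 sh2 alone, and EFNA1 was called higher with CPSF1 sh1 alone. The 9 genes called with neither were KDM4B, ANGPTL4, WSB1, GBE1, PLOD1, RAB20, ZNF395, HILPDA and NARF.

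In LNCaP95 cells CPSF1 sh2 lowered these genes further than CPSF1 sh1. In the test of CPSF1 sh2 against CPSF1 sh1, 34 of 40 genes were lower with CPSF1 sh2, where 17.7% of all tested genes were, and BHLHE41 was higher (16.5% of all genes were). The median difference was -0.42 over the members. The 5 genes without a call were KDM4C, GYS1, EFNA1, RAB20 and RIMKLA. LOX changed by -1.40 with CPSF1 sh1 and -2.82 with CPSF1 sh2 in LNCaP95, a difference of -1.42 (adjusted p = 5.90e-12), and ANKRD37 by -2.76 with CPSF1 sh1 and -4.26 with CPSF1 sh2, a difference of -1.50 (adjusted p = 7.31e-07). VEGFA changed by -1.07 with CPSF1 sh1 and -1.80 with CPSF1 sh2, a difference of -0.73 (adjusted p = 4.59e-08). CPSF1 mRNA itself was 61.3 ± 6.01 CPM (SD, n = 3) under CPSF1 sh1 and 61.5 ± 2.55 CPM under CPSF1 sh2, at an adjusted p of 0.998 for the difference. HIF1A mRNA was 231 ± 7.07 CPM under CPSF1 sh1 and 294 ± 6.86 CPM under CPSF1 sh2, a difference of 0.35 (adjusted p = 3.56e-06) in the opposite direction to the members.

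In the other lines the hairpins differed for fewer genes. LNCaP had 8 genes higher with CPSF1 sh2 than with CPSF1 sh1 (BNIP3, PDK1, P4HA1, NDRG1, PLOD1, TMEM45A, ZNF395 and PPFIA4; 6.53% of all tested genes were higher) and 2 lower (CA12 and EFNA1; 8.24%). PPFIA4 changed there by -3.55 with CPSF1 sh1 and -2.77 with CPSF1 sh2, a difference of 0.78 (adjusted p = 0.00375). The count of 8 was 3 without CPSF1 sh2 replicate 2. 22Rv1 had 3 genes lower with CPSF1 sh2 (BNIP3L, P4HA1 and EFNA3; 5.85%) and none higher (5.47%), and the count of 3 went to 8 without CPSF1 sh1 replicate 1, 6 without CPSF1 sh1 replicate 3, 1 without CPSF1 sh2 replicate 2 and 0 without CPSF1 sh2 replicate 1.

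**Figure D3:**
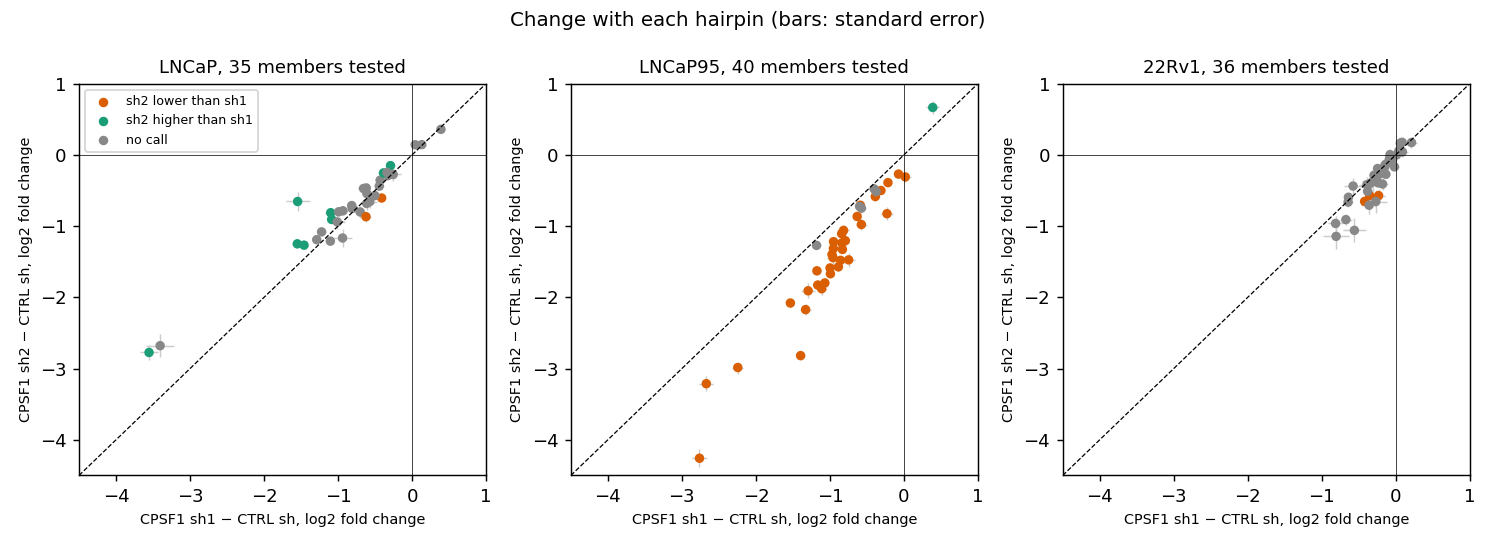
Log2 fold change against CTRL sh with CPSF1 sh1 (horizontal axis) and with CPSF1 sh2 (vertical axis) for each tested gene in LNCaP, LNCaP95 and 22Rv1 cells, with the diagonal marking equal change and colour marking genes for which CPSF1 sh2 and CPSF1 sh1 differed; bars are standard errors. In LNCaP95 34 of 40 genes are called below the diagonal, while in LNCaP 8 of 35 are called above it and in 22Rv1 3 of 36 below it.

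Whether the effect of CPSF1 depletion differed between lines was tested in a fit of all 27 libraries, over the 33 genes above the filter in each. Comparisons that share a line share its control libraries. LNCaP95 minus LNCaP was lower for 13 genes (24.1% of all 10317 tested genes were) and higher for 4 (26.7%). 22Rv1 minus LNCaP was lower for 1 (20.0%) and higher for 18 (20.4%). 22Rv1 minus LNCaP95 was lower for 1 (27.1%) and higher for 24 (26.6%), so that the falls were shallower in 22Rv1 for most members whose effect differed. The fall of CPSF1 mRNA itself was also shallower in 22Rv1 than in LNCaP95 (difference 0.39, standard error 0.10, adjusted p = 0.00255). For CPSF1, 22Rv1 minus LNCaP was 0.16 (adjusted p = 0.208) and LNCaP95 minus LNCaP -0.22 (adjusted p = 0.077). The part of unequal depletion in the differences between lines was not tested.

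A called difference over 1 on the log2 scale was found for 6 members between LNCaP and LNCaP95 (4.38% of all tested genes), 2 between LNCaP and 22Rv1 (2.60%) and 9 between LNCaP95 and 22Rv1 (4.03%). Between LNCaP and LNCaP95, HILPDA (-1.88, standard error 0.20, adjusted p = 5.43e-09), NDRG1 (-1.45), GBE1 (-1.09) and GYS1 (-1.01) went lower in LNCaP95, while PPFIA4 (2.05, standard error 0.27, adjusted p = 3.73e-07) and PLOD2 (1.81) fell further in LNCaP. Between LNCaP and 22Rv1, PLOD2 (2.54) and PPFIA4 (2.13) passed that size, with the deeper falls in LNCaP. Between LNCaP95 and 22Rv1 these were HILPDA (2.51, standard error 0.19, adjusted p = 2.40e-11), NDRG1 (1.48), EFNA1 (1.41), WSB1 (1.24), KDM3A (1.23), FUT11 (1.18), ERO1L (1.12), VEGFA (1.07) and GBE1 (1.02), all lower in LNCaP95. BNIP3, BNIP3L, PDK1 and P4HA1 showed no difference of that size between any of the lines.

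Several members come as paralogs, and the ratio of their counts within a library is free of the scaling between libraries. Of 7 pairs, 17 tests were possible where both partners passed the filter in a line, each by an exact two-sided permutation test over the 84 ways to choose 3 controls from 9 libraries, whose smallest p is 0.0238. The ratio changed in 11 of 17 at an adjusted p of 0.0368. All 11 were at the smallest p, which is reached only when the control and CPSF1 sh libraries do not overlap. The lack of overlap is thus the same fact as the call. The ratio of counts depends on gene length, so that only its change is read here. How often ratios of other gene pairs changed was not counted, so that 11 of 17 has no background. Whether a changed ratio is particular to these paralogs was not tested.

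The pair BHLHE40 and BHLHE41 parted most. In LNCaP95 the log2 ratio of BHLHE40 to BHLHE41 went from 5.02 ± 0.0804 (SD, n = 3) to 1.55 ± 0.460 (n = 6), a change of -3.47. PLOD1 gained on PLOD2 in all 3 lines, with a change of 2.85 in LNCaP, 0.93 in LNCaP95 and 0.39 in 22Rv1. In LNCaP its log2 ratio went from 2.13 ± 0.0704 (SD, n = 3) to 4.98 ± 0.706 (n = 6). CA9 lost ground to CA12 in LNCaP95 (-1.47). KDM4B gained on KDM4C in LNCaP (0.58) and 22Rv1 (0.43), and in LNCaP95 the value was 0.17 (adjusted p = 0.101, exact test).

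The ratio of EFNA1 to EFNA3 went in opposite directions, at -0.45 in LNCaP95 and 0.59 in 22Rv1. Its LNCaP value was 0.25 (adjusted p = 0.125, exact test). P4HA1 lost ground to P4HA2 in LNCaP (-0.61), with values of -0.20 in LNCaP95 and 0.031 in 22Rv1 (adjusted p = 0.202 and 0.833, exact tests). BNIP3 lost ground to BNIP3L in 22Rv1 (-0.26), with values of 0.16 in LNCaP and 0.15 in LNCaP95 (adjusted p = 0.189 and 0.173, exact tests). Whether a ratio changed differently in another line was not tested.

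**Figure D4:**
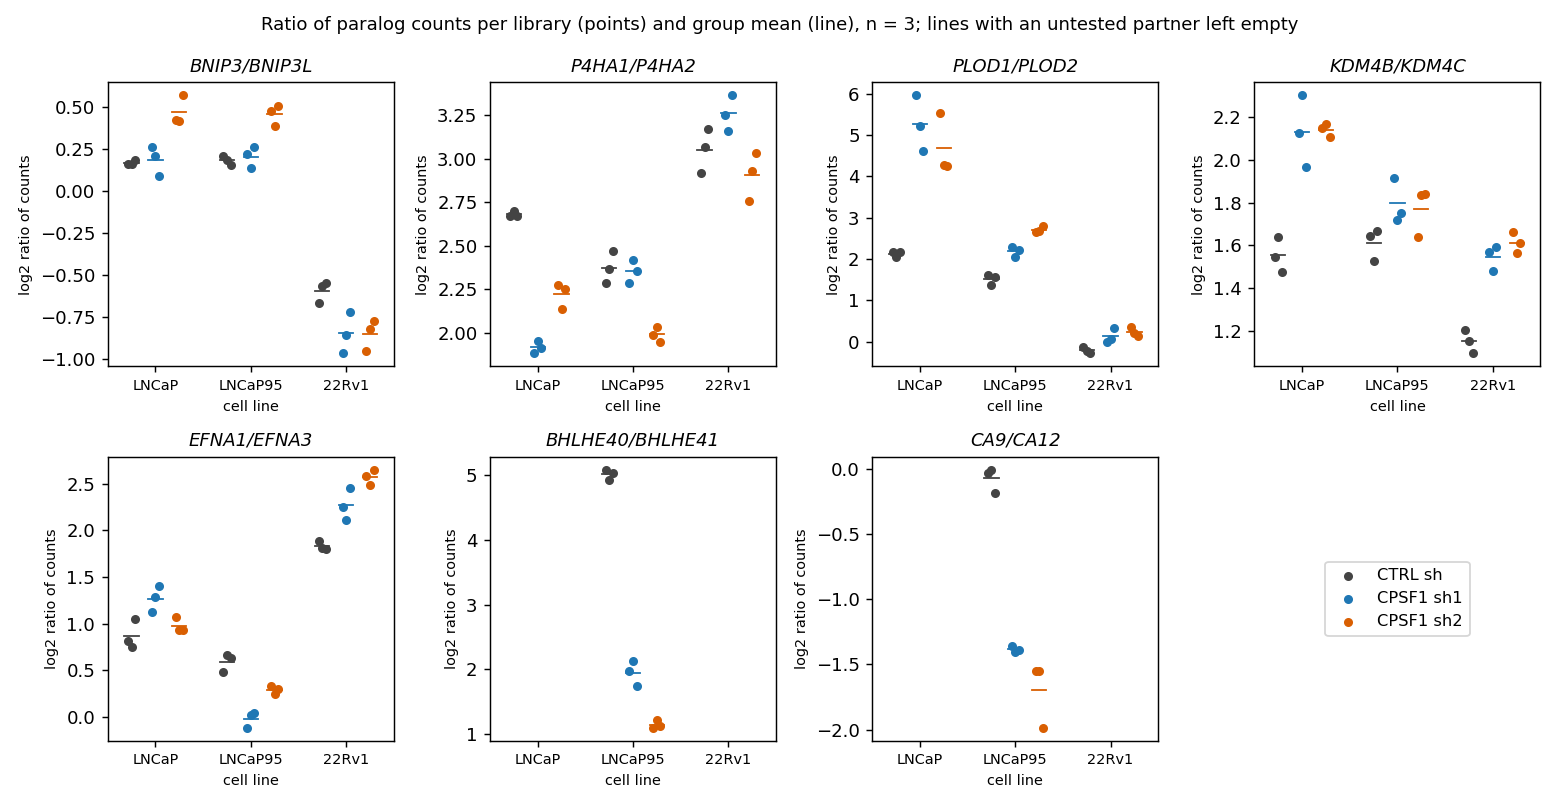
Log2 ratio of the counts of 7 paralog pairs in each library, by cell line, with points for the 3 replicates of CTRL sh, CPSF1 sh1 and CPSF1 sh2 and a bar at each group mean; a cell line is left empty where a partner was not tested. The PLOD1/PLOD2 points rise with CPSF1 sh in every line, by 2.85 in LNCaP, and the BHLHE40/BHLHE41 points change by -3.47 in LNCaP95.

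The rest of the HIF pathway was counted from lists of genes that are not members, against the shares of all tested genes that fell and rose (31.0% and 31.1% in LNCaP, 33.7% and 33.2% in LNCaP95, 14.3% and 12.7% in 22Rv1). Of the 20 glycolytic HIF targets, 16 of 19 tested fell in LNCaP (84.2%) and 1 rose (HK1, 0.42), 18 of 18 fell in LNCaP95, and 10 of 19 fell in 22Rv1 (52.6%) with none higher. Furthest were ENO2 (-2.50) and PFKFB4 (-1.90) in LNCaP, ENO2 (-1.88) and ALDOC (-1.82) in LNCaP95, and SLC16A3 (-1.10) and ALDOC (-0.86) in 22Rv1.

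A list of 14 other HIF targets was more mixed, at 6 lower (60.0%) and 4 higher (40.0%) of 10 in LNCaP, 8 and 2 of 10 in LNCaP95 (80.0% and 20.0%), and 5 and 1 of 11 in 22Rv1 (45.5% and 9.09%). NDUFA4L2, a paralog of a mitochondrial subunit, fell in LNCaP (-4.12), LNCaP95 (-1.53) and 22Rv1 (-1.75). HMOX1, which breaks down haem, had the largest fall of this list in LNCaP95 (-1.67), and the second largest were those of INSIG2 in LNCaP (-1.15) and VLDLR in 22Rv1 (-0.72). The largest rises were those of IGFBP3 in LNCaP (2.796) and LNCaP95 (2.44) and of JMJD6 in 22Rv1 (0.20). In LNCaP95 no gene of this list exceeded 0.85 with CPSF1 sh1, while the highest value with CPSF1 sh2 was 3.18. The pooled rise of IGFBP3 there thus came mostly from CPSF1 sh2.

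Of the HIF machinery (subunits, VHL and oxygen sensors), 5 of 8 fell (62.5%) and 2 rose (25.0%) in LNCaP, 5 of 9 and 2 in LNCaP95 (55.6% and 22.2%), and 1 of 8 and 2 in 22Rv1 (12.5% and 25.0%). The rises in LNCaP and LNCaP95 and the fall in 22Rv1 were thus no more frequent than among all genes. The oxygen sensor EGLN3, itself a HIF target, changed by -0.94 in LNCaP and -0.84 in LNCaP95, and ARNT by -0.54 in LNCaP. The related sensor EGLN1 fell in every line, furthest in LNCaP95 (-0.95), then LNCaP (-0.42) and 22Rv1 (-0.21). ARNT2, a paralog of ARNT, had the largest rise of the machinery in LNCaP95, from 3.45 ± 0.748 CPM (SD, n = 3) to 7.23 ± 0.546 CPM (n = 6), with all 6 CPSF1 sh libraries above the controls (1.04, standard error 0.14, adjusted p = 3.38e-05). It rose in 22Rv1 as well (0.46, standard error 0.07, adjusted p = 3.79e-04), and in LNCaP it fell, from 29.8 ± 1.38 CPM to 20.4 ± 1.76 CPM (-0.54, standard error 0.075, adjusted p = 2.12e-05). The largest rise in LNCaP was that of HIF1AN (0.29), the asparaginyl hydroxylase of HIF. The change of HIF1A mRNA was -0.24 (standard error 0.093, adjusted p = 0.0332) in LNCaP95, -0.0099 (standard error 0.061, adjusted p = 0.922) in 22Rv1 and 0.098 (standard error 0.038, adjusted p = 0.0349) in LNCaP. In LNCaP95 its level was lower with CPSF1 sh1 than with CPSF1 sh2, as given above, so that the pooled fall came more from CPSF1 sh1. HIF protein was not measured here.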

How the data were processed

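Poly(A)-selected stranded libraries (TruSeq Stranded mRNA) were sequenced from 27 samples in 9 groups of 3. Per the paper's methods, the authors aligned the paired-end reads to hg19 (GRCh37) with HISAT2 2.1.0 and deposited raw counts per gene, made by featureCounts of Subread in reverse-stranded mode with the Ensembl annotation of GRCh37. The submitters' processing notes give Subread 2.0.3. Counts were not normalized before deposit. Each of the 27 columns was assigned to its sample from the column name.

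Here, for each line, genes over 2 CPM in every one of its 9 libraries were normalized by TMM and compared by edgeR 4.0.16 (R 4.3.3), quasi-likelihood F-test in its legacy form, as 3 CTRL sh against 6 CPSF1 sh libraries, with Benjamini-Hochberg adjustment over all tested genes and a threshold of 0.05. Hairpins were fitted as 3 groups per line, and line differences as interactions over 27 libraries. Paralog ratios (log2, 0.5 counts added) were compared by exact permutation tests in SciPy 1.17.1, adjusted over 17 tests. Gene positions are GRCh37 and promoters are RefSeq GRCh38.p14. Depth was 8515624 to 15904518 counts, and chi-square per degree of freedom between replicates 1.39 to 7.31, where 1 is counting error alone. For 22Rv1 CPSF1 sh1, replicate 3 gave 7.31 against replicate 1 and 4.56 against replicate 2, while replicates 1 and 2 gave 1.97. CTRL sh replicates 1 and 2 of LNCaP95 gave 5.22. Scripts were tested on simulated data.

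The members, their grouping by role and the other lists were chosen with earlier results of these data known. Described with all library values are, per line, the 5 largest falls and up to 3 largest rises among called members, and BNIP3, BNIP3L, PDK1, P4HA1, KDM3A, VEGFA and NDRG1. Other members are named with their status, and non-members by the largest 2 falls and largest rise called per list and line. HIF1A, EGLN1 and ARNT2 in LNCaP and the marker genes named were chosen after their values were seen. Alternatives were RLE factors, library size alone, DESeq2 1.42.0, edgeR 4 quasi-likelihood, 3 other filters, averaged hairpins, a replicate block, a 2-fold minimum, 1 count added to ratios, and each library left out in turn.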

Additional observations from a re-analysis of the deposited data

Results flagged for a closer look

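The effect of CPSF1 depletion on a member differed between 2 cell lines by over 1 on the log2 scale, or took opposite called directions, in the cases below. Each difference was tested as an interaction in edgeR over all 27 libraries, with Benjamini-Hochberg adjustment over 10317 genes. Over all genes, differences above 1 with a call made up 4.38% between LNCaP95 and LNCaP, 2.60% between 22Rv1 and LNCaP and 4.03% between 22Rv1 and LNCaP95. No cause of any difference was tested.

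LNCaP95 minus LNCaP was -1.88 (standard error 0.20, adjusted p = 5.43e-09) for HILPDA, -1.45 (standard error 0.21, adjusted p = 1.68e-06) for NDRG1, -1.09 (standard error 0.11, adjusted p = 4.34e-09) for GBE1, -1.01 (standard error 0.08, adjusted p = 2.08e-11) for GYS1 and -0.60 (standard error 0.093, adjusted p = 4.06e-06) for KDM4B. GYS1 and KDM4B rose in LNCaP and fell in LNCaP95, the KDM4B rise being lost without single libraries. The sign was the other way for PLOD2, at 1.81 (standard error 0.27, adjusted p = 2.14e-06), and PPFIA4, at 2.05 (standard error 0.27, adjusted p = 3.73e-07), whose levels fell in both lines and further in LNCaP.

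Between 22Rv1 and LNCaP the difference was 2.54 (standard error 0.28, adjusted p = 3.06e-08) for PLOD2, 2.13 (standard error 0.33, adjusted p = 8.63e-06) for PPFIA4 and 0.71 (standard error 0.092, adjusted p = 5.80e-07) for EFNA1, which fell in LNCaP and rose in 22Rv1.

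Between 22Rv1 and LNCaP95 it was 2.51 (standard error 0.19, adjusted p = 2.40e-11) for HILPDA, 1.48 (standard error 0.22, adjusted p = 2.54e-06) for NDRG1, 1.41 (standard error 0.091, adjusted p = 5.91e-13) for EFNA1, 1.24 (standard error 0.13, adjusted p = 4.67e-09) for WSB1 and 1.23 (standard error 0.18, adjusted p = 1.85e-06) for KDM3A. For FUT11 it was 1.18 (standard error 0.22, adjusted p = 5.40e-05), for ERO1L 1.12 (standard error 0.16, adjusted p = 8.25e-07), for VEGFA 1.07 (standard error 0.19, adjusted p = 3.82e-05) and for GBE1 1.02 (standard error 0.11, adjusted p = 2.29e-08). In all 9 the level after depletion was the lower one in LNCaP95 relative to its own controls. CPSF1 mRNA also fell further in LNCaP95 than in 22Rv1 (difference 0.39, adjusted p = 0.00255).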

How the results depend on the processing

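No called result changed direction under any alternative. Calls of single results, genes or paralog ratios, were lost 294 times and gained 79 times in 10009 comparisons. The losses include every called paralog ratio of a line with a library left out, as explained in the next paragraph. A 2-fold minimum left 9, 23 and 0 genes lower in LNCaP, LNCaP95 and 22Rv1, and 0 higher in each. Without an expression filter 1 gene was higher in LNCaP and 2 in LNCaP95. With filterByExpr 1 was higher with CPSF1 sh1 in LNCaP, and 2 were lower in 22Rv1 minus LNCaP and 2 in 22Rv1 minus LNCaP95. Library size alone gave 1 higher with CPSF1 sh1 in LNCaP. DESeq2 gave 1 gene lower with CPSF1 sh2 than with CPSF1 sh1 in LNCaP and 1 in 22Rv1. Replicate numbers did not pair the samples: same-numbered libraries correlated above 0.1 in 3, 3 and 1 of 9 pairs in LNCaP, LNCaP95 and 22Rv1, and 4, 0 and 1 of 9 libraries correlated best with their own number. With the replicate block 0 genes were higher in 22Rv1, where EFNA1 was at an adjusted p of 0.0533 and the fall of FUT11 lost its call at 0.0753, and no other count of calls moved by over 1.5 times. RLE size factors, edgeR 4 quasi-likelihood, a 1 CPM filter, averaged hairpins and 1 count added to the ratios moved none of the counts by that much.

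With each library left out in turn, genes higher ranged over 1 to 3 in LNCaP and 0 to 2 in 22Rv1. Higher with CPSF1 sh1 were 1 to 2 in LNCaP and 0 to 1 in 22Rv1, and with CPSF1 sh2 1 to 3 in LNCaP and 0 to 3 in 22Rv1. For CPSF1 sh2 minus CPSF1 sh1, 1 to 2 were lower and 3 to 12 higher in LNCaP, and 0 to 8 lower and 0 to 1 higher in 22Rv1. 22Rv1 minus LNCaP had 0 to 1 lower. The count of changed paralog ratios was 0 throughout. A line with 8 libraries allows fewer splits and has a larger smallest p. Ratios of the other lines kept their p but lost their calls through the shared adjustment over 17 tests. This count therefore cannot show whether a call rested on a single library. The control-level count of 30 genes, whose alternatives were chosen after seeing the data, ranged from 29 to 31. Genes not above 2 CPM in every library of a line were left untested there, and depth limits the precision of such low genes. With 3 libraries per group, and no label saying that replicates were separate infections, p-values measure the spread between these libraries.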
